A study of Saccharomyces cerevisiae with 7 samples.

Results

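The citric acid cycle enzyme genes CIT1, CIT2, ACO1, IDH1, IDH2, KGD1, KGD2, LPD1, FUM1 and MDH1 of Saccharomyces cerevisiae were examined in nascent RNA. They were found by their symbols in the authors' table of 5732 genes, where all 10 had a row. The cells were of strain DPY1283, labelled Hsf1-AA and Rpb3-FLAG, which all 4 conditions share. Hsf1-AA is read here as an anchor-away tag on Hsf1, the heat shock transcription factor: adding rapamycin binds such a protein to an anchor outside the nucleus. Rpb3 is a subunit of RNA polymerase II. The conditions were 30 °C, 30 °C with 1 µM rapamycin, 39 °C (heat shock) and 39 °C with 1 µM rapamycin, each with 1 sample in the labels. The sources used here do not give the times in heat or in rapamycin. An untagged strain was not analysed here, so loss of nuclear Hsf1 and other effects of rapamycin cannot be told apart. The other 3 samples, Hsf1 chromatin immunoprecipitations from strain BY4741, were not analysed here.

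The citric acid cycle runs in the mitochondrial matrix, where it oxidises acetyl groups to carbon dioxide and passes electrons to the respiratory chain. In yeast growing on glucose its genes are partly repressed, and the Hap2/3/4/5 complex activates many of them when cells respire. Genes of the first steps, which make alpha-ketoglutarate for glutamate synthesis, are also targets of the retrograde factors Rtg1 and Rtg3. In rapamycin-sensitive yeast, inhibition of the TOR kinase turns these factors on, and CIT2 is their standard reporter.

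Values are the authors' average normalized read count per gene, 1 deposited value per condition, so that differences stand without replicates or a test. The low values of each column fall on sums of 2 fixed steps, as for the mean of 2 scaled libraries with estimated depths of 205000 to 795000 reads. From these steps a counting SD was computed for each value, 3.41% to 9.14% of it for the 10 genes. It covers counting error only, not variation between cultures, and these reads carry no molecular identifiers. Column totals ran from 369160.1 to 433510.0 normalized reads. All 10 genes passed the filter on low values that kept 4585 genes, and their means over the 4 conditions lay between the 87.0th and the 97.7th percentile of all genes. HSF1 itself had 78.7 normalized reads at 30 °C, 60.3 with rapamycin there, 113 at 39 °C and 99.98 at 39 °C with rapamycin. Anchoring moves the protein, so these reads do not check its removal.

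**Figure D1:**
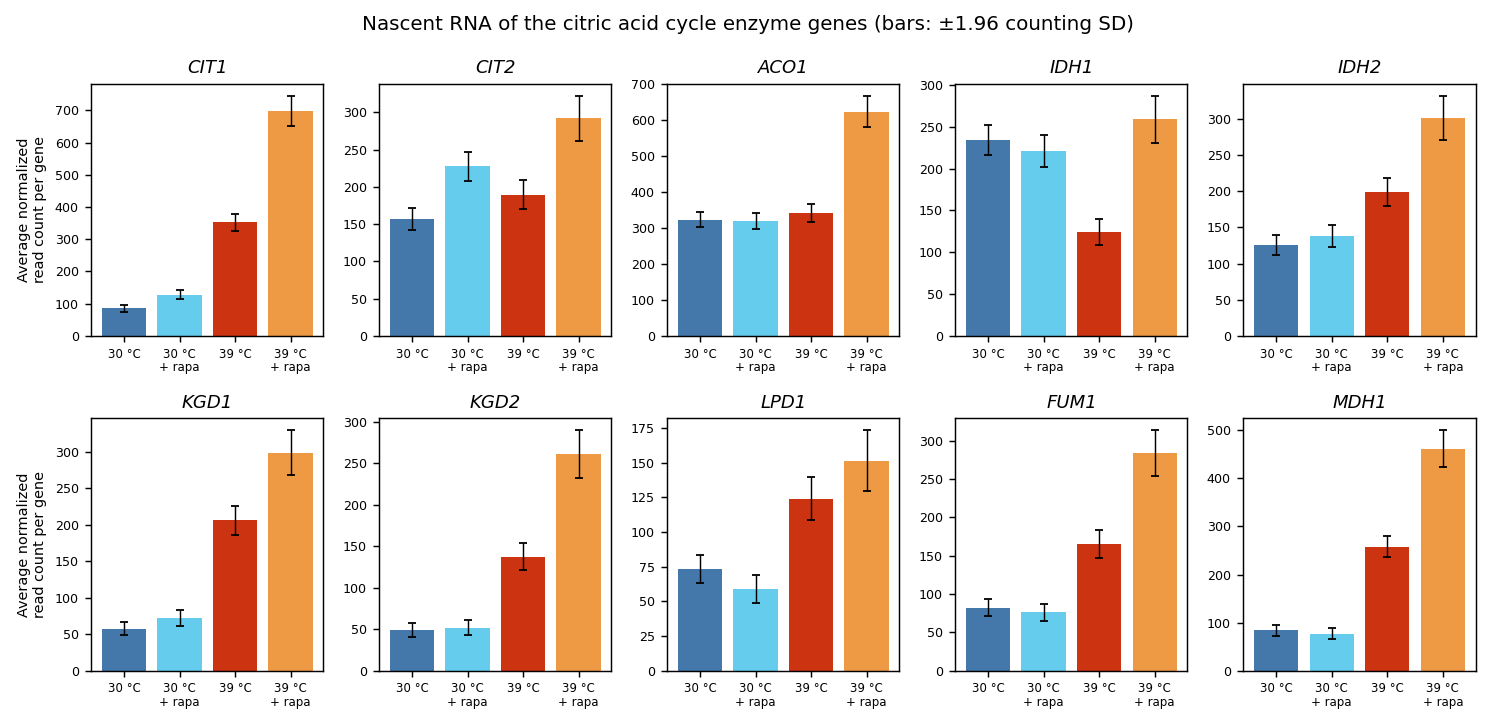
Average normalized read count per gene (linear axis from 0, a separate scale for each gene) of the 10 genes at 30 °C and 39 °C without and with 1 µM rapamycin (rapa); error bars are 1.96 counting SD. Every gene has its highest bar at 39 °C with rapamycin, and IDH1 is the gene whose bar at 39 °C without rapamycin is lower than at 30 °C.

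Heat shock without rapamycin left the 10 genes spread over a wide range. CIT1, KGD1, MDH1 and KGD2 were at least 2-fold higher at 39 °C than at 30 °C, which is 4 of 10 genes, against 16.1% of all genes kept. None of the 10 was at least 2-fold lower, against 17.9% of all genes kept, and IDH1 was nearest to that mark. Above 0 were 9 of the 10, against 50.4% of all genes kept. Their median log2 ratio was 0.86, a 1.82-fold difference, beside 0.01 for all genes kept. A log2 ratio here is that of 2 conditions after adding 2.851 to each value, and its counting standard error (SE) is given beside it. In 8 of the 10 genes the ratio lay above 0 by more than 1.96 counting SE, as it did in 34.5% of all genes kept, and in IDH1 it lay as clearly below 0, as in 33.2% of all genes kept. FUM1, at 0.99, was just under the 2-fold mark. With 0.01 of the median added instead of 2.851, FUM1 was at 1.01 and 5 of the 10 were at least 2-fold higher. Of all genes kept, 808 were then 2-fold higher in place of 740.

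Heat shock with rapamycin gave higher ratios. Here 7 of 10 genes were at least 2-fold higher than at 30 °C with rapamycin, against 12.3% of all genes kept. They were MDH1, CIT1, KGD2, KGD1, FUM1, LPD1 and IDH2, and ACO1 was just under the mark at 0.96. The median log2 ratio was 1.59, a 3.01-fold difference, beside -0.0006 for all genes kept. All 10 were above 0, against 50.0% of all genes kept, and each by more than 1.96 counting SE, against 27.8%. At least 2-fold lower were none of the 10 and 12.8% of all genes kept.

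Rapamycin alone was linked to small differences at 30 °C. None of the 10 genes passed 2-fold in either direction, and few genes of the table did, 0.0436% higher and 0.371% lower. The median log2 ratio was 0.03, with 5 genes above 0, against 50.3% of all genes kept, and 5 below. CIT1, CIT2 and KGD1 were above 0 by more than 1.96 counting SE, as were 5.71% of all genes kept. CIT1 at 0.56 and CIT2 at 0.53 stood at the 98.0th and 97.7th percentile of all genes kept. LPD1 was the 1 gene below 0 by more than 1.96 counting SE, as were 7.04% of all genes kept. During heat shock every one of the 10 genes was higher with rapamycin than without it, by log2 ratios from 0.28 to 1.04, while 51.9% of all genes kept were above 0. In each of the 10 the ratio exceeded 1.96 counting SE, against 19.5% of all genes kept. The median was 0.80, a 1.74-fold difference, beside 0.02 for all genes kept. IDH1 alone reached 2-fold, 1 of 10 against 5.37% of all genes kept. Adding 0.5 of the median in place of the pseudocount used left 0 (IDH1 at 0.98), and 91 of all genes kept in place of 246. Scaling the columns to equal totals gave 3, and 333 of all genes kept. No gene of the 10 was lower, and 2.88% of all genes kept were at least 2-fold lower. These comparisons share columns: both heat-shock columns enter the rapamycin comparison at 39 °C and 1 heat comparison each.

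**Figure D2:**
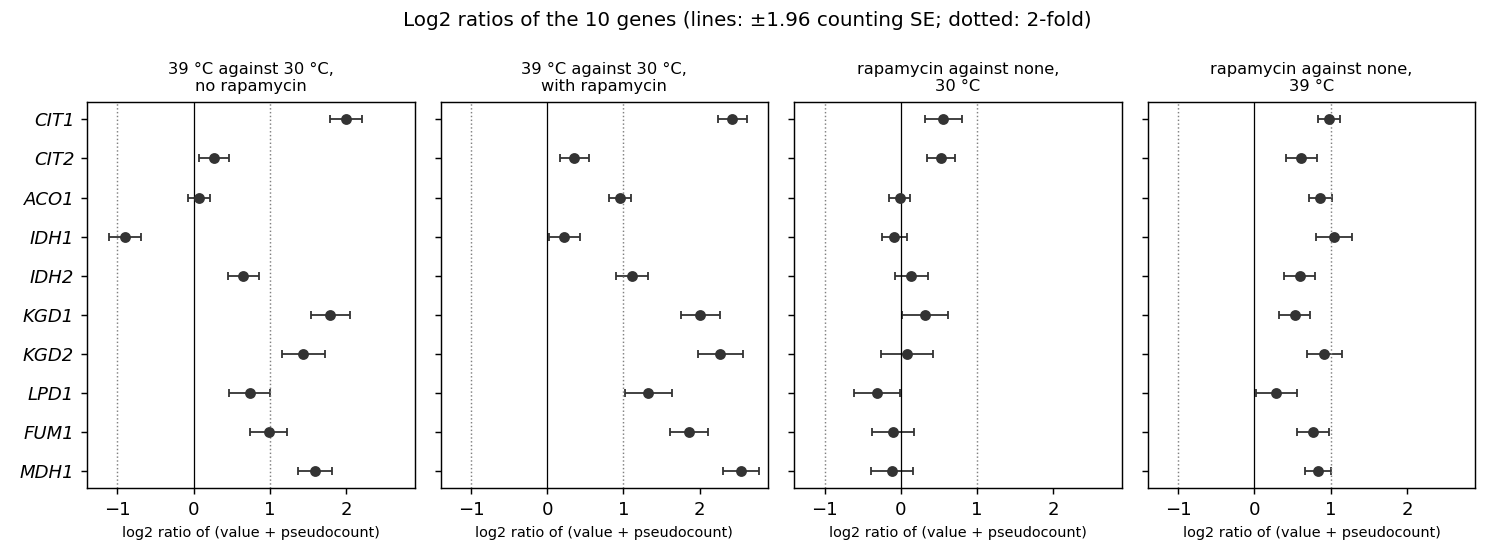
Log2 ratios of the 10 genes in the 4 comparisons; points are the ratios on the log2(value + 2.851) scale, horizontal lines are 1.96 counting SE and dotted lines mark 2-fold. With rapamycin at 39 °C all 10 points lie between 0.28 and 1.04, whereas with rapamycin at 30 °C they lie between -0.31 and 0.56.

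Citrate synthase, which joins acetyl-CoA to oxaloacetate, opens the cycle. CIT1 (YNR001C, chromosome XIV, 629622 to 631061), the mitochondrial enzyme, had 86.0 ± 5.68 (counting SD) normalized reads at 30 °C and 128 ± 7.43 with rapamycin. At 39 °C it had 353 ± 13.3 without rapamycin and 699 ± 23.9 with it. The 4 values stand clear of each other, and the highest is 8.14 times the lowest, the widest span among the 10 genes. The log2 ratios were 2.001 (SE 0.11) for heat alone, 0.56 (SE 0.12) for rapamycin alone, 2.43 (SE 0.096) for heat with rapamycin and 0.98 (SE 0.073) for rapamycin during heat.

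CIT2 (YCR005C, III, 120946 to 122328), the peroxisomal citrate synthase of the glyoxylate cycle, had 157 ± 7.67 normalized reads at 30 °C and 228 ± 9.93 with rapamycin. At 39 °C it had 189.5 ± 9.78 and, with rapamycin, 292 ± 15.4. In contrast to CIT1, its values separate by rapamycin more than by temperature. The heat ratio was 0.27 (SE 0.10) without rapamycin, 1.73 (SE 0.15) below that of CIT1 on the log2 scale. The rapamycin ratio at 30 °C was 0.53 (SE 0.093), and its difference from CIT1 was within counting error (0.03, 95% counting interval -0.28 to 0.33). CIT1 and CIT2 are paralogs, and the sources used here do not say how reads that fit both were counted, so their split is uncertain.

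Aconitase, encoded by ACO1 (YLR304C, XII, 735212 to 737548), turns citrate into isocitrate and is also needed to maintain mitochondrial DNA. ACO1 had 323 ± 11.01 normalized reads at 30 °C, 319.7 ± 11.8 at 30 °C with rapamycin and 341 ± 13.1 at 39 °C. At 39 °C with rapamycin it had 623 ± 22.5. The first 3 values differed by no more than counting error, and the last stood apart from them. The log2 ratios were 0.08 (SE 0.074) for heat and -0.02 (SE 0.072) for rapamycin alone, and both turn sign when the columns are scaled to equal totals. Rapamycin during heat gave 0.87 (SE 0.076).

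IDH1 and IDH2 encode the subunits of the NAD-dependent isocitrate dehydrogenase, Idh1 regulatory and Idh2 catalytic, and their nascent RNA differed in direction in heat. IDH1 (YNL037C, XIV, 557920 to 559002) had 234 ± 9.37 normalized reads at 30 °C and 221 ± 9.77 with rapamycin. It had 124 ± 7.91 at 39 °C, the lowest of its values, and 259 ± 14.5 at 39 °C with rapamycin. Its heat ratio was -0.90 (SE 0.11) without rapamycin and 0.23 (SE 0.10) with it. IDH1 was the only gene of the 10 below 0 in heat without rapamycin, and its ratio for rapamycin during heat, 1.04 (SE 0.12), was the highest of the 10.

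IDH2 (YOR136W, XV, 580250 to 581359) had 125 ± 6.85 normalized reads at 30 °C and 138 ± 7.72 with rapamycin, then 199 ± 10.01 at 39 °C and 301 ± 15.7 at 39 °C with rapamycin. Its heat ratios were 0.65 (SE 0.11) without rapamycin and 1.11 (SE 0.11) with it. In heat alone IDH1 lay 1.56 below IDH2 on the log2 scale (95% counting interval -1.85 to -1.26), and with rapamycin 0.89 below it (-1.18 to -0.59). Per kilobase of gene, the level of IDH1 was 1.92 (SE 0.13) times that of IDH2 at 30 °C and 0.64 (SE 0.052) times at 39 °C. With rapamycin the same level ratio was 1.64 (SE 0.12) at 30 °C and 0.88 (SE 0.067) at 39 °C. IRC14 (YOR135C), which stands next to IDH2 by locus number and has no entry in the RefSeq gene table, had 78.8, 77.6, 77.7 and 127 normalized reads at 30 °C, 30 °C with rapamycin, 39 °C and 39 °C with rapamycin. Whether it shares reads with IDH2 was not checked.

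The alpha-ketoglutarate dehydrogenase complex holds 3 enzymes, Kgd1 (E1), Kgd2 (E2) and Lpd1 (E3). KGD1 (YIL125W, IX, 122689 to 125733) had 57.5 ± 4.64 normalized reads at 30 °C and 72.3 ± 5.59 with rapamycin, then 206 ± 10.2 at 39 °C and 299 ± 15.6 with rapamycin. KGD2 (YDR148C, IV, 753675 to 755066) had 48.8 ± 4.28 and 51.8 ± 4.73 at 30 °C, and 137 ± 8.33 and 261 ± 14.6 at 39 °C, each time without rapamycin first. In both genes the pair of heat-shock values lies well above the pair at 30 °C. Their heat ratios were 1.79 (SE 0.13) and 1.44 (SE 0.15) without rapamycin and 2.01 (SE 0.13) and 2.27 (SE 0.15) with it. Neither difference between KGD1 and KGD2 exceeded counting error, with intervals of -0.04 to 0.74 and -0.65 to 0.12. For rapamycin during heat KGD2 at 0.91 was above KGD1 at 0.53, by 0.39 (interval of KGD1 minus KGD2, -0.69 to -0.08).

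LPD1 (YFL018C, VI, 101628 to 103127) encodes dihydrolipoamide dehydrogenase, which also serves pyruvate dehydrogenase and the glycine cleavage system. It had 73.5 ± 5.25 normalized reads at 30 °C and 58.8 ± 5.04 with rapamycin, then 124 ± 7.91 at 39 °C and 152 ± 11.1 with rapamycin. Its values move with heat, but over a narrower span than those of KGD1 and KGD2. The heat ratio of 0.73 (SE 0.13) was 1.06 (SE 0.19) below that of KGD1 and 0.71 (SE 0.20) below that of KGD2. Rapamycin went with a ratio of -0.31 (SE 0.15) at 30 °C, the lowest of the 10 genes, and of 0.28 (SE 0.14) at 39 °C, also the lowest. Both are close to the limit of counting error.

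FUM1 (YPL262W, XVI, 47336 to 48802), the fumarase gene, had 81.9 ± 5.54 normalized reads at 30 °C and 76.0 ± 5.73 with rapamycin, then 165 ± 9.13 at 39 °C and 283 ± 15.2 with rapamycin. MDH1 (YKL085W, XI, 279123 to 280127), the mitochondrial malate dehydrogenase gene that closes the cycle, had 83.8 ± 5.61 and 76.9 ± 5.77 at 30 °C, and 258 ± 11.4 and 462 ± 19.4 at 39 °C, each time without rapamycin first. In both genes the values at 30 °C overlap within counting error and the 2 heat-shock values stand apart. The heat ratio was 0.99 (SE 0.12) for FUM1 and 1.59 (SE 0.11) for MDH1 without rapamycin. With rapamycin it was 1.86 (SE 0.13) and 2.54 (SE 0.12), and MDH1 had the highest such ratio of the 10. Rapamycin during heat gave 0.77 (SE 0.11) and 0.83 (SE 0.087), a difference within counting error.

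The rapamycin ratio at 39 °C was above the rapamycin ratio at 30 °C in all 10 genes, against 51.1% of all genes kept. The difference, on the log2 scale, had a median of 0.71 beside 0.01 for all genes kept. IDH1 at 1.13 (SE 0.15) was past 1, which is 1 of 10 genes against 6.91% of all genes kept, and none was past -1, against 3.75%. In 8 of the 10 the difference exceeded 1.96 counting SE, against 16.1% of all genes kept. MDH1 at 0.95, ACO1 at 0.88, FUM1 at 0.87 and KGD2 at 0.83 followed. CIT2 at 0.09 (SE 0.14) and KGD1 at 0.21 (SE 0.19) were within counting error of 0. CIT1, CIT2 and KGD1 are the 3 genes that were already above 0 by more than 1.96 counting SE with rapamycin at 30 °C, as were 5.71% of all genes kept. The ratio at 30 °C is subtracted in this difference, so a gene high there comes out lower in it by construction. The 2 observations are therefore not independent. The plot of the heat response without against with rapamycin shows the same difference as the height above the diagonal.

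**Figure D3:**
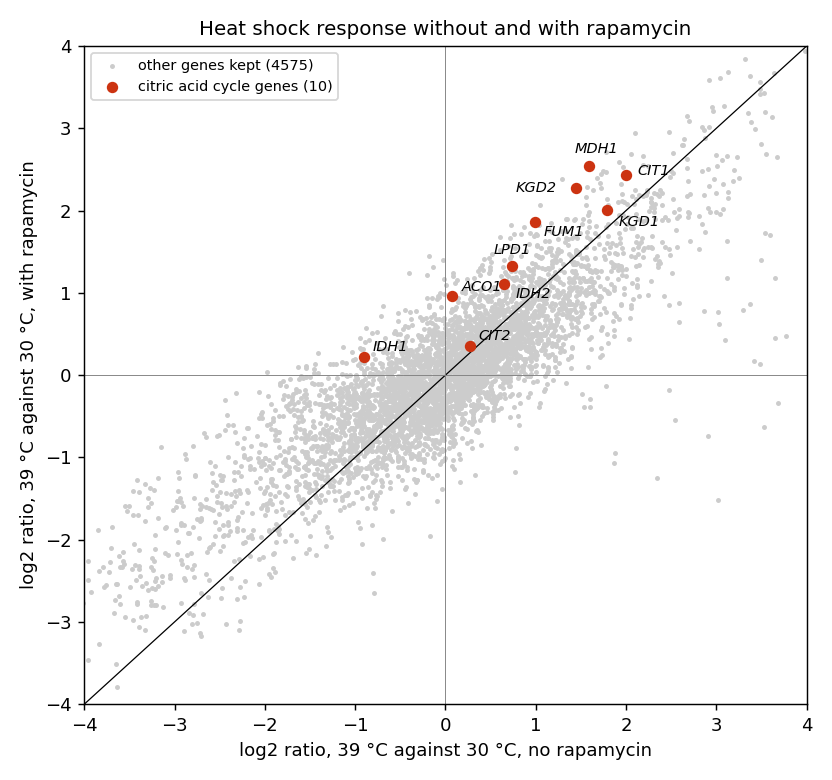
Log2 ratio of 39 °C against 30 °C without rapamycin (horizontal) and with rapamycin (vertical) for the 10 genes (red) and the 4575 other genes kept (grey, of which 67 lie outside the axes); the line marks equal ratios. All 10 genes lie above the line, from 0.09 for CIT2 to 1.13 for IDH1.

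Levels of different genes were compared per kilobase of annotated gene. At 30 °C IDH1 was highest at 216 normalized reads per kilobase, followed by ACO1 at 138, CIT2 at 113, IDH2 at 113, MDH1 at 83.4, CIT1 at 59.7, FUM1 at 55.9, LPD1 at 49.0, KGD2 at 35.0 and KGD1 at 18.9. CIT2 and IDH2 did not differ beyond counting error, and neither did CIT1 from FUM1 nor FUM1 from LPD1. With rapamycin at 30 °C the order was IDH1 (204), CIT2 (165), ACO1 (137), IDH2 (124), CIT1 (88.7), MDH1 (76.5), FUM1 (51.8), LPD1 (39.2), KGD2 (37.2) and KGD1 (23.7). There ACO1 and IDH2, CIT1 and MDH1, and LPD1 and KGD2 did not differ beyond counting error. At 39 °C the order was MDH1 (257), CIT1 (245), IDH2 (179), ACO1 (146), CIT2 (137), IDH1 (114), FUM1 (113), KGD2 (98.7), LPD1 (82.7) and KGD1 (67.7). Within counting error of each other were MDH1 and CIT1, ACO1 and CIT2, IDH1 and FUM1, and FUM1 and KGD2. IDH1 was thus highest of the 10 at 30 °C and stood between CIT2 and FUM1 at 39 °C.

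With rapamycin at 39 °C CIT1 (486) and MDH1 (459.5) led, and did not differ beyond counting error. IDH2 (271), ACO1 (267), IDH1 (239), CIT2 (211), FUM1 (193) and KGD2 (188) followed, each within counting error of the next, and LPD1 (101) and KGD1 (98.2) were lowest and also within it. The ratio of the highest to the lowest of the 10 levels per kilobase was 11.4 at 30 °C and 3.79 at 39 °C, and with rapamycin 8.59 and 4.95. The 10 genes together took 0.336% of all normalized reads at 30 °C, 0.371% with rapamycin, 0.484% at 39 °C and 0.914% at 39 °C with rapamycin.

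**Figure D4:**
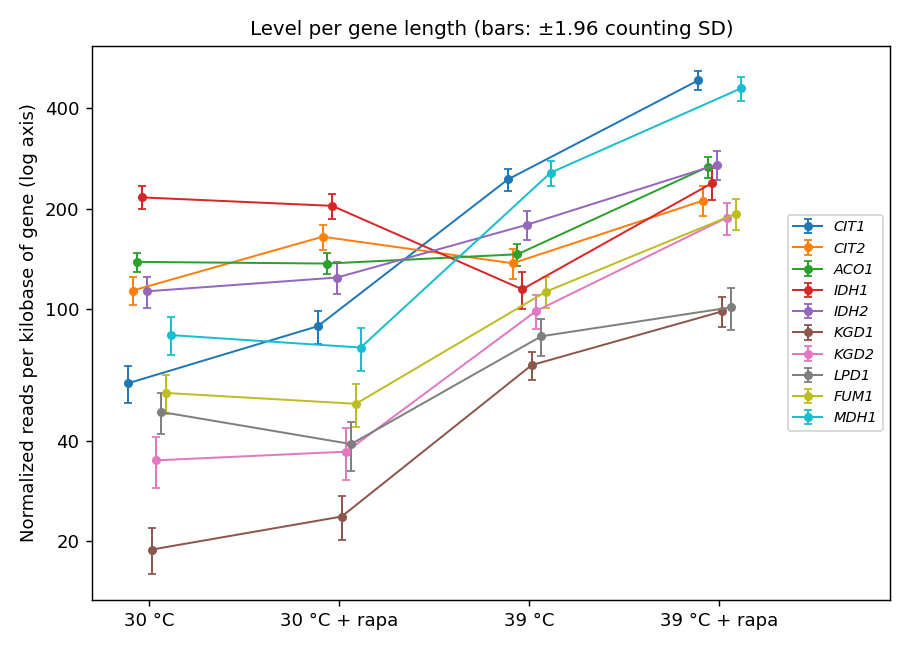
Normalized reads per kilobase of gene (log axis) for the 10 genes in the 4 conditions, with 1.96 counting SD as error bars; lines join the values of a gene and points are set side by side for legibility. IDH1 is highest at both 30 °C conditions, CIT1 and MDH1 at both 39 °C conditions, and KGD1 is lowest throughout.

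Further enzymes and paralogs of the cycle formed a list of 14 genes, all measured, of which 11 passed the filter on low values. Counts over a list include its genes under the filter, whereas the shares of all genes kept do not. In heat without rapamycin 7 of the 14 were at least 2-fold higher and none 2-fold lower, against 16.1% and 17.9% of all genes kept, with a median log2 ratio of 0.93, from -0.08 for CIT3 to 1.72 for SDH1. Succinate dehydrogenase, which is also complex II of the respiratory chain, had all 4 subunit genes at least 2-fold higher. SDH1, the flavoprotein subunit, had 94.1 normalized reads at 30 °C and 96.9 with rapamycin, then 317 at 39 °C and 541 with rapamycin. SDH1 and SDH2 did not differ beyond counting error in the 4 comparisons, with 1.72 and 1.67 in heat (interval of the difference -0.34 to 0.44) and 0.76 and 0.75 for rapamycin during heat (-0.29 to 0.32). SDH3 and SDH4, the membrane anchors, had 0.19 (SE 0.18) and 0.31 (SE 0.19) in the latter.

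Rapamycin during heat shock went with ratios above 0 in 9 of the 14 listed genes, against 51.9% of all genes kept, with a median of 0.12 beside 0.80 in the 10 genes first described. Among the paralogs, MDH2 and MDH3, the cytosolic and peroxisomal malate dehydrogenases, had 0.05 and -0.12, which is 0.78 (SE 0.20) and 0.95 (SE 0.18) below MDH1. Per kilobase, the level of MDH1 was 2.32 (SE 0.19) times that of MDH3 at 39 °C and 4.52 (SE 0.44) times with rapamycin. The succinyl-CoA ligase genes LSC1 and LSC2 had 0.01 and 0.54, LSC1 lower by 0.53 (SE 0.25). The third citrate synthase gene, CIT3, was under the filter, at 8.04, 6.43, 7.43 and 12.1 normalized reads in the order 30 °C, 30 °C with rapamycin, 39 °C and 39 °C with rapamycin.

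**Figure D5:**
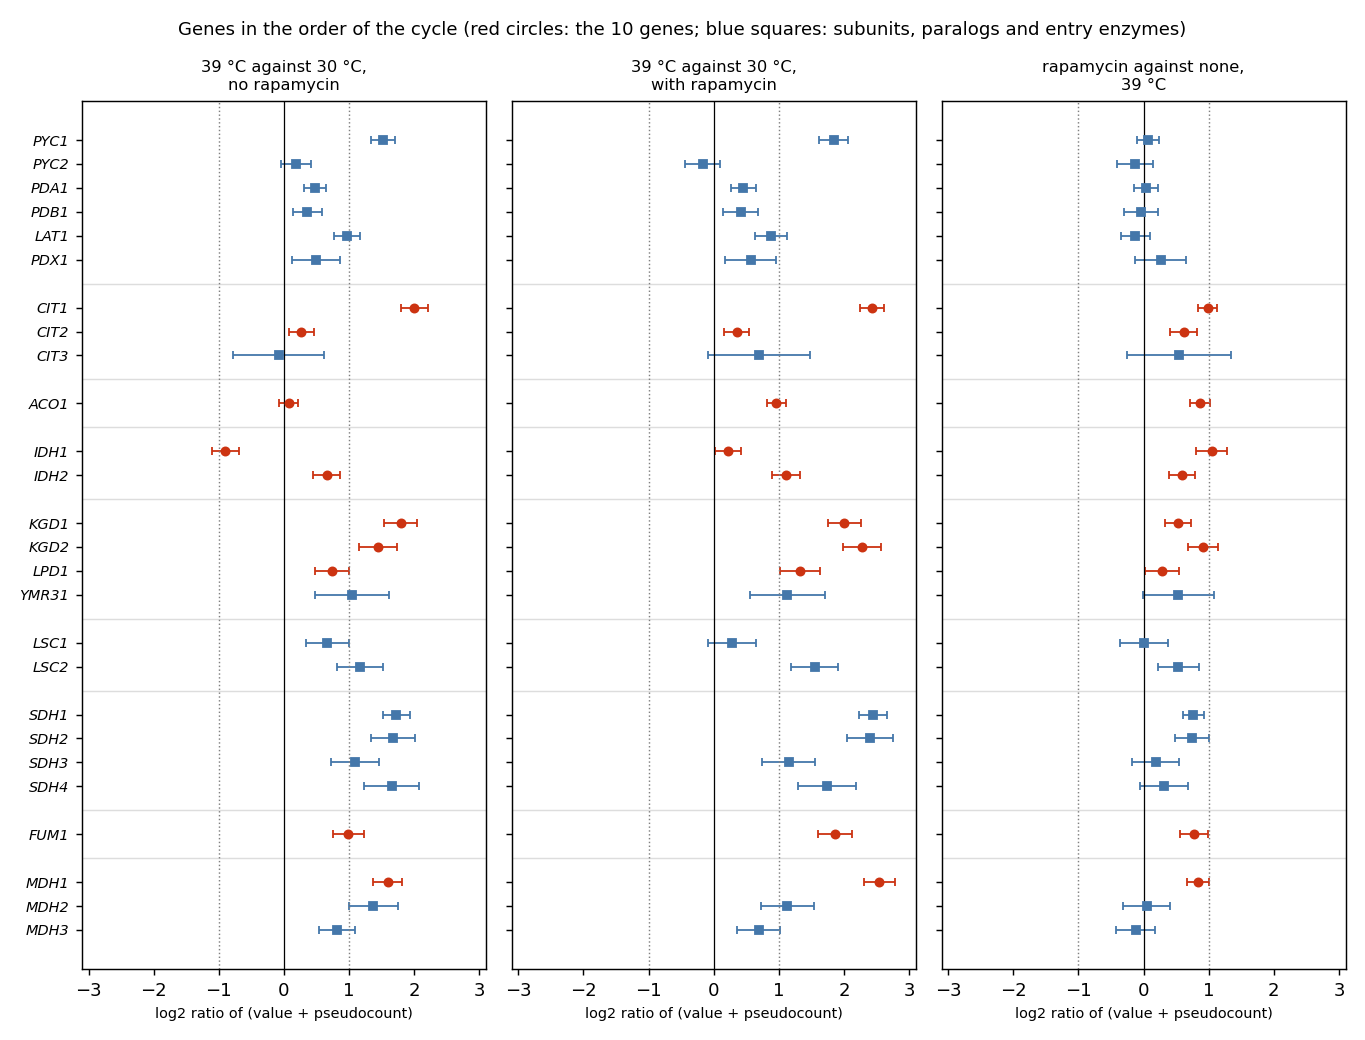
Log2 ratios on the log2(value + 2.851) scale of genes set in the order of the cycle, from the enzymes that feed it (PYC1 to PDX1) through citrate synthase to malate dehydrogenase; red circles are the 10 genes, blue squares their partners and paralogs, lines 1.96 counting SE and dotted lines 2-fold. YMR31 is the table's name for KGD4. In the panel for rapamycin at 39 °C the pyruvate carboxylase and pyruvate dehydrogenase genes lie within counting error of 0 and all 10 red circles lie to the right of it.

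In the list of 11 pyruvate dehydrogenase and anaplerotic genes, whose products feed the cycle, no gene passed 2-fold for rapamycin during heat. Of all genes kept, 5.37% were at least 2-fold higher and 2.88% lower. None of the 11 lay above or below 0 by more than 1.96 counting SE, against 19.5% and 15.6% of all genes kept. The median was 0.03. The pyruvate dehydrogenase subunit genes PDA1, PDB1, LAT1 and PDX1 had 0.03, -0.04, -0.12 and 0.26, and LPD1, which they share with the cycle, 0.28. In heat without rapamycin 2 of the 11 were at least 2-fold higher and 1 lower, against 16.1% and 17.9% of all genes kept, with a median of 0.48. PKP2, a pyruvate dehydrogenase kinase gene, was highest at 1.56 and MAE1, the malic enzyme gene, lowest at -3.26. PYC1, which makes oxaloacetate from pyruvate, had 126 normalized reads at 30 °C and 366 at 39 °C, a ratio of 1.52, whereas its paralog PYC2 had 0.19.

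Of the 8 glyoxylate cycle genes, CIT2 and ACO1 among them, 6 passed the filter on low values. MDH2 at 1.37 was the only gene of the 8 at least 2-fold higher in heat, against 16.1% of all genes kept, and the median was 0.55. For rapamycin during heat the median was 0.17, from -0.16 for PCK1, the gluconeogenic carboxykinase gene, which was under the filter, to 0.87 for ACO1. Carriers of cycle intermediates across the inner membrane had 3 of 8 measured genes at least 2-fold lower in heat, against 17.9% of all genes kept, and 3 above 0, with a median of -0.55. Of these 8 carrier genes, 6 passed the filter. The oxaloacetate carrier gene OAC1 was lowest, at 189 normalized reads at 30 °C and 18.8 at 39 °C, a ratio of -3.14. ODC1, an oxodicarboxylate carrier gene that was under the filter on low values, was highest at 0.86. For rapamycin during heat they ranged from -0.60 for ODC2 to 0.92 for YHM2, the citrate and oxoglutarate carrier gene.

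The partners of LPD1 in lipoate attachment and glycine cleavage formed a list of 6 genes, all measured. In heat GCV1 at 1.02 was the only one at least 2-fold higher, against 16.1% of all genes kept, LIP5 was lowest at 0.08 and the median was 0.33. For rapamycin during heat GCV3, which encodes the lipoyl-carrying protein of glycine cleavage, was highest at 0.89 and AIM22 (LIP3), a lipoate ligase gene, lowest at -0.19, with a median of 0.25.

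Regulator genes were read from a list of 14, of which 13 passed the filter. HAP4, the glucose-regulated subunit of the Hap complex, had 184 normalized reads at 30 °C and 222 with rapamycin, then 81.9 at 39 °C and 145 with rapamycin. Its ratio was -1.14 (SE 0.13) in heat and 0.80 (SE 0.15) for rapamycin during heat. Its heat-shock values lay below its values at 30 °C. HAP4 was the highest of the list for rapamycin during heat, where the median was -0.25. In heat without rapamycin HAP2, HAP3 and HAP5, of the same complex, had 1.60 (SE 0.27), -0.24 (SE 0.28) and -0.09 (SE 0.23). For rapamycin during heat HAP2, HAP3 and HAP5 had -0.355 (SE 0.27), 0.12 (SE 0.35) and -0.42 (SE 0.31), each within counting error. RTG1, RTG2 and RTG3, of the retrograde pathway, had -0.58, -0.03 and -0.07 there. CAT8 and SIP4, activators of gluconeogenic genes, had 2.07 and 2.99 in heat and -0.87 and -2.32 for rapamycin during heat. SIP4 was under the filter, with 2.21, 2.10, 37.4 and 5.20 normalized reads at 30 °C, 30 °C with rapamycin, 39 °C and 39 °C with rapamycin.

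Retrograde targets were read from a list of 7 genes, 5 of them among the 10. With rapamycin at 30 °C none passed 2-fold and the median was 0.0003, from -0.26 for PYC1 to 0.56 for CIT1. CIT2 had 0.53. Past 1.96 counting SE were CIT1 and CIT2 above 0 and PYC1 below it, against 5.71% and 7.04% of all genes kept. DLD3, a 2-hydroxyglutarate transhydrogenase gene, had 148 normalized reads both with and without rapamycin. For rapamycin during heat all 7 were above 0, against 51.9% of all genes kept, from 0.06 for PYC1 to 1.04 for IDH1. The median was 0.62. The 5 among the 10 were already counted above, so this count adds only DLD3 and PYC1. They had 0.49 (SE 0.12) and 0.06 (SE 0.085), the latter within counting error of 0.

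Respiratory chain and ATP synthase genes, the electron acceptors of the cycle and the enzyme they drive, were set beside the cycle genes. Of the 38 genes 36 were above 0 for rapamycin during heat, among them 6 past 2-fold, against 51.9% and 5.37% of all genes kept, and their median was 0.74. In heat without rapamycin 4 of the 38 were at least 2-fold higher, against 16.1% of all genes kept, and the median was 0.55, from -0.996 for NDE1 to 3.34 for CYC7. With rapamycin in heat 27 of the 38 were at least 2-fold higher, against 12.3% of all genes kept, with a median of 1.30. Lower glycolysis genes had a median of 0.87 in heat, near that of the cycle genes, but of -0.54 for rapamycin during heat, where 9 of 10 were below 0 (51.9% of all genes kept were above 0) and TDH1 at -1.31 was lowest. Whether these medians differ from that of the cycle genes was not tested.

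The genes of most similar profile were sought among the 4575 other genes kept, by the Euclidean distance of 4 log2 values, each gene centred on its own mean. Nearest to the median profile of the 10 were TSA1, a peroxiredoxin gene, at 0.11, AIM24 at 0.13, the nucleoside diphosphate kinase gene YNK1 at 0.15, ARH1, of mitochondrial iron metabolism, at 0.16 and QCR8, a complex III subunit gene, at 0.17. The median distance of the other genes was 1.46. TSA1 had 249, 244, 467 and 701 normalized reads at 30 °C, 30 °C with rapamycin, 39 °C and 39 °C with rapamycin. Among the 10 themselves FUM1 lay nearest to the median profile, at 0.20, and IDH1 farthest, at 1.66, followed by CIT1 at 1.09 and CIT2 at 1.08. Nearest to IDH1 were TIM9, a mitochondrial import chaperone gene, at 0.07, the ribosomal protein gene RPL34A at 0.09 and the cell wall gene CWP2 at 0.09. RPL34A had heat and rapamycin-in-heat ratios of -1.03 and 1.098, beside -0.90 and 1.04 for IDH1. Nearest to CIT1 were FMP33 at 0.18, YEL073C at 0.19 and BAG7 at 0.25.

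By position, none of the 10 genes overlapped another gene of the RefSeq table. Loci with no entry there stand close by locus number to KGD2 (YDR149C) and MDH1 (YKL083W), as IRC14 does to IDH2, and overlap with them was not checked. YDR149C had a heat ratio of 0.44 and YKL083W of -2.18. YKL083W was under the filter on low values, with 23.2 normalized reads at 30 °C and 2.89 at 39 °C. BAG7 ends 456 bases before IDH2 on the same strand, and had a heat ratio of 1.94 against 0.65 for IDH2. IDH1 and the carbonic anhydrase gene NCE103 are transcribed away from each other, 811 bases apart. NCE103 had 35.4 normalized reads at 30 °C and 161 at 39 °C, a ratio of 2.10 where IDH1 had -0.90, and both had ratios above 0 for rapamycin during heat, 0.63 and 1.04. FUM1 and its divergent neighbour KEL3, 829 bases apart, had 0.99 and -1.09 in heat. The divergent neighbours of KGD2 and LPD1, NUM1 and SMX2, had 0.81 and -0.19 in heat, and -0.66 and -0.22 for rapamycin during heat. SMX2 was under the filter on low values, with 9.605 normalized reads at 30 °C, 8.09 at 39 °C and 6.565 at 39 °C with rapamycin. The sources used here do not say which strand was counted, and reads of nearby genes on the other strand cannot be set apart.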

How the data were processed

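Nascent RNA was measured in 4 conditions, and the deposited table holds 1 column for each, matched to the conditions by the header abbreviations for heat shock, no heat shock and rapamycin. Per the file headers its values are average normalized read counts, a signal value scaled by the authors by a method the sources used here do not name. HTSeq and build sacCer3 are named per the submitters' processing notes; versions, aligner, annotation, strand setting and the treatment of reads that fit several genes were not stated. Nascent RNA can carry mature RNA along, which the table does not separate.

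Log2 ratios were computed in Python 3.11.15 with numpy 2.4.6 and pandas 2.3.3 after adding 2.851, 0.1 of the median of all values. Genes with a mean of at least 14.442, the 20th percentile, were kept for counts over all genes, and a 2-fold difference was the mark for higher or lower. On this scale ratios of weakly transcribed genes come out too small.

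All values were multiples of 0.005. Values under 6 fell within 0.0055 of sums of whole multiples of 2 steps in 98.3% to 100% of cases, with at least 1 read of each library assumed. The variance of a value from counting is then the value times the column's minimum, divided by 2. Intervals are 1.96 SE. The procedure was tested on simulated columns, each drawn as the mean of 2 libraries with counting error only. Such a run cannot show that the deposited columns are means of this kind.

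Coordinates and gene lengths are those of RefSeq, assembly R64, in which 5351 of the 5732 loci had an entry, all 10 genes included. SFC1 and MPC3 matched no row, and 1 listed gene is not reported here. The 10 genes, the lists, the rule for naming the highest and lowest gene of a list and that for similar profiles were chosen with earlier results of these data known. Pairs of subunits or paralogs, neighbouring genes and further list members were named after their values were seen. Other pseudocounts, filters, a 1.5-fold mark and columns scaled to equal totals were tried.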

Additional observations from a re-analysis of the deposited data

Results flagged for a closer look

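IDH1 was lower in heat without rapamycin, at -0.90 on the log2 scale, and higher in heat with rapamycin, at 0.23, each by more than 1.96 counting SE. LPD1 was lower with rapamycin at 30 °C, at -0.31, and higher with rapamycin at 39 °C, at 0.28, each just past that limit. In both genes the single value of 1 condition pointed one way and that of the other the opposite way, and the difference was not tested against variation between cultures.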

How the results depend on the processing

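Scaling every column to the same total moved the median of all genes kept to -0.17 in heat and 0.14 for rapamycin during heat. The count of the 10 genes at least 2-fold lower in heat then became 1 (IDH1 at -1.10), and that of all genes kept 1019 (820 before). At least 2-fold higher with rapamycin during heat were 3 (IDH1, CIT1 and KGD2), and 333 of all genes kept (246 before). The difference between temperatures in the rapamycin ratio was at least 1 in 2 (IDH1 and MDH1), and in 380 of all genes kept (317 before). The ACO1 ratios turned from 0.08 to -0.12 in heat and from -0.02 to 0.02 for rapamycin at 30 °C. With a pseudocount of 0.5 of the median no gene of the 10 was 2-fold higher with rapamycin during heat (0, with IDH1 at 0.98). With a 1.5-fold mark 7 were higher and 1 lower in heat, 8 were higher with rapamycin during heat and 6 had such a difference between temperatures. No other ratio of the 10 genes changed sign under the alternatives run. The median of the 10 genes went from 0.86 to 0.67 in heat, from 1.59 to 1.49 in heat with rapamycin and from 0.80 to 0.92 for rapamycin during heat with equal column totals, and to 0.78, 1.45 and 0.77 with the larger pseudocount. Over all genes kept, a pseudocount of 0.5 of the median lowered the counts past 2-fold from 246 higher and 132 lower to 91 and 82 for rapamycin during heat, from 317 and 172 to 124 and 80 for the difference between temperatures, from 588 to 361 lower in heat with rapamycin, and from 2 and 17 to 0 and 11 for rapamycin at 30 °C. The 2 became 10 when only 0.01 of the median was added, 5 if weak genes stayed in, and 0 if genes under the 40th percentile were dropped. With a 1.5-fold mark the counts of higher and lower genes were 1257 and 1296 in heat (740 and 820 past 2-fold), 1048 and 1095 in heat with rapamycin (566 and 588), 73 and 64 for rapamycin at 30 °C, 716 and 489 for rapamycin during heat, and 805 and 614 for the difference. Leaving out a replicate was not possible, since each condition has 1 averaged column, and no paired analysis was possible because the columns carry no replicate numbers. Depth limits the genes with low values, such as CIT3 and SIP4.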
